A study of Homo sapiens with 7 samples.

Results

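A set of 392 genes was read strongly by GRO-seq and hardly at all by RNA-seq in HCT116 cells, out of 20072 gene symbols, 20056 of them with values. The members were chosen by a rule on the deposited values, namely a mean transcription rate (TR) of at least 8 RPKM and a mean mRNA abundance (RA) below 0.25 RPKM. RPKM is the number of reads per kilobase of exon, scaled to the size of the library. Histone and HOX symbols, small and structural RNA symbols, LINC and LOC symbols and antisense symbols were left out, which removed 20 genes that met both limits. TR and RA of the members are thus given as a description, without a test. HCT116 is a cell line long established from a human colorectal carcinoma, and all samples were cells in exponential growth without an experimental treatment, except that cells for polysome profiling were briefly incubated with cycloheximide, a drug that holds ribosomes on mRNA, before harvest. This step belonged to the TA samples alone, so its effect and that of the assay cannot be told apart. TR was read from 2 GRO-seq libraries, RA from 3 RNA-seq libraries and translation activity (TA) from 2 polysome libraries. The labels number the libraries within each assay and the paper calls them biological replicates.

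GRO-seq lets polymerases that are already engaged on DNA extend their RNA in isolated nuclei, so it reads transcription before splicing, polyadenylation, export and decay act on the RNA. It reads any RNA that a polymerase is making over a position, including RNA made behind the 3' end of a gene, where polymerases commonly run on before they let go, and RNA made from the opposite strand. RNA-seq and polysome profiling, as done here on isolated mRNA, read polyadenylated RNA, in the latter case the RNA that sediments with several ribosomes. The authors counted reads over exons. The library preparation in the paper used random primers and second-strand synthesis, and no step that keeps the strand is named. The sources used here do not state whether the counting used strand. Reads of a member and of a gene on the opposite strand of the same exons thus cannot be told apart.

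Depth was 3391897 and 5629982 reads in the TR libraries, 20299018 to 22532134 in RA, and 30805391 and 22421062 in TA. These numbers were recovered from the RPKM values, which came out as whole reads for 100% of the genes. The recovered exon reads of all genes made up 99.98% to 100.07% of them. They are thus totals of reads counted over exons, and reads elsewhere are not in them. At the median exon length of the members, 2012 bases, 1 read was worth 0.0161 RPKM in TA replicate 1 and 0.0222 RPKM in TA replicate 2. The epithelial genes EPCAM, KRT8, KRT18, KRT19 and CDH1 were above 20 RPKM in every library. Of the 16 epithelial genes examined, only 7 were above 1 RPKM in each RA library. CEACAM6 and TFF3 had 0 reads throughout, and CDX1, CEACAM5 and MUC13 were at 0 in both TR libraries. RA of VIL1, LGALS4, GPA33 and CDH17 was at most 0.278 RPKM. Summed RA was at most 0.738 RPKM over 8 blood genes and 0.355 RPKM over 4 endothelial genes. It was 10.4 to 14.01 RPKM over 6 fibroblast genes, nearly all of it COL1A1. Over 5 neuronal genes it was 21.9 to 39.5 RPKM, nearly all of it SYT1 and MAP2. TR replicate 1 stood apart in genes of striated muscle. Of 36 muscle genes listed after the data were seen, 26 (72.2%) had more than 2 times the RPKM of TR replicate 2 and in 0 of them was TR replicate 2 more than 2 times replicate 1, against 1.22% and 1.38% of 14305 expressed genes. Their summed TR was 1106 RPKM in replicate 1 and 196 RPKM in replicate 2, against 96.2 and 82.4 RPKM in the TA libraries and 100 to 163 RPKM in the RA libraries, most of it from TNNT1, and 8 of the 36, MYH7, MYBPC1, MYL3 and SLN among them, were at 0 in TR replicate 2 and at 0.0980 to 20.5 RPKM in replicate 1. Of these 36 genes 9 were members, and their values are given for each library. Of the 392 members, 380 met the rule on TR replicate 2 alone.

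Sequences of 5 promoters are shown first, 2 members each with the mRNA-producing gene beside it and 1 further member, to show the letters counted over all promoters further on. Each is the 250 bases before the start of the main transcript in GENCODE release 44 on GRCh37, the build of the deposited data, written 5' to 3' on the strand of the gene, with CG dinucleotides and the letters TATAAA in capitals. KLB, the co-receptor of endocrine fibroblast growth factors (chr4:39408300-39408549, + strand), lies end to end with the ribosomal protein gene RPL9 (chr4:39460543-39460792, - strand). CKM, muscle creatine kinase (chr19:45826134-45826383, - strand), lies end to end with the kinase gene MARK4 (chr19:45754279-45754528, + strand). ACTA1, skeletal muscle actin (chr1:229569842-229570091, - strand), is shown as a member with many CG and with TATAAA close to the start.
KLB: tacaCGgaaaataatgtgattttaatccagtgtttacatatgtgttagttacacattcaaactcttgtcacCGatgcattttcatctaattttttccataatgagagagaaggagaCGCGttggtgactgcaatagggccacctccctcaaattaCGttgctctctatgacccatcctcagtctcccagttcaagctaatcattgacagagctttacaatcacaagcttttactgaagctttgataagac
RPL9: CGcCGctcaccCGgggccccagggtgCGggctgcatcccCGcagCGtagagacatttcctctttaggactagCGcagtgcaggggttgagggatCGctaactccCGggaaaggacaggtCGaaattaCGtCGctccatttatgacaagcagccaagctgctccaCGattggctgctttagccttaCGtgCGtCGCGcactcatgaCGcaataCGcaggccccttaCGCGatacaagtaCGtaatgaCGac
CKM: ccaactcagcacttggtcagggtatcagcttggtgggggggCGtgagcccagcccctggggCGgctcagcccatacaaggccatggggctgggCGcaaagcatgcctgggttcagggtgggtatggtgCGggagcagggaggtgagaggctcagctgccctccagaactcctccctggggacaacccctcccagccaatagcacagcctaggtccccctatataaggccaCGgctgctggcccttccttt
MARK4: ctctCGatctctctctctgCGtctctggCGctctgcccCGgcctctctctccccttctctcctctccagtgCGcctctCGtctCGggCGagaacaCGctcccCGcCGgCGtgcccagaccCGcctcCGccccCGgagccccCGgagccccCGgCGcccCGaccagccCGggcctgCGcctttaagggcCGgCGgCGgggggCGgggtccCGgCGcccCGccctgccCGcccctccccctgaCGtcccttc
ACTA1: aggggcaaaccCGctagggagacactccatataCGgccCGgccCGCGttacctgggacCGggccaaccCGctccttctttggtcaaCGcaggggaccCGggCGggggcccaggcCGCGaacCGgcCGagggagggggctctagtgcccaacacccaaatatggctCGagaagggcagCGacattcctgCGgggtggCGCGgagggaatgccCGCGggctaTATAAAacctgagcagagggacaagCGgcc

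The promoters of KLB and CKM held 5 CG each, those of their neighbours RPL9 and MARK4 held 23 and 30, and that of ACTA1 held 22. ACTA1 had TATAAA between 40 and 15 bases before the start, and the other 4 did not. Mean TR of KLB was 62.9 RPKM and of RPL9 110 RPKM, whereas mean RA was 0.0571 RPKM and 67.0 RPKM. For CKM and MARK4, mean TR was 71.8 and 31.6 RPKM, that of CKM resting on TR replicate 1, and mean RA 0.221 and 15.9 RPKM. In both pairs the genes were far apart in RA.

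The mean TR of the members ranged from 8.02 to 143 RPKM with a median of 13.3 RPKM. Of the 392 members, 97 lay between 8 and 10 RPKM, 106 reached 20 RPKM, 31 reached 40 RPKM and 3 exceeded 100 RPKM. Their RA had a median of 0.0875 RPKM, 129 members were below 0.05 RPKM, and 16 had 0 reads in all RA libraries. Among the members with reads in RA, TR was 182 times RA at the median, and 28 had a TR of at least 1000 times RA. With all members summed, 50490 and 97096 reads of the TR libraries, or 1.49% and 1.72%, fell on these genes. The share was between 0.00789% and 0.0105% in the RA libraries, and 0.00434% and 0.00357% in the TA libraries. The pooled level was taken as the summed reads of the members over their summed exon length, scaled to the size of the library. It was 17.3 ± 1.80 RPKM in TR (SD, n = 2), 0.103 ± 0.0159 RPKM in RA (SD, n = 3) and 0.0426 ± 0.00587 RPKM in TA (SD, n = 2). All are relative to the reads of a library counted over exons. In bulk samples, fewer cells that make an RNA and less RNA per cell cannot be told apart.

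At the TR limit, MROH2A (8.02 RPKM), TSGA13 (8.02 RPKM) and SASH3 (8.04 RPKM) were just inside, and CPB2 (7.998 RPKM), LCT (7.97 RPKM) and PDZD2 (7.96 RPKM) just outside. At the RA limit, FAM151A (0.2497 RPKM), MCMDC2 (0.2494 RPKM) and ZFPM2 (0.2492 RPKM) were just inside, and NNAT (0.254 RPKM), CORT (0.255 RPKM) and NLRC3 (0.255 RPKM) just outside. The members do not form a class with a gap around it: with a TR limit of 4 RPKM there would be 729 of them, and with an RA limit of 0.5 RPKM 533.

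The 12 members with the highest TR included genes known from muscle, retina, lens and testis. MCCD1 (chr6:31496739-31498009, + strand), which encodes a mitochondrial coiled-coil domain protein, had a TR of 136 and 150 RPKM. It had 3 reads in RA replicate 1, 0 in the other RA libraries and 0 in both TA libraries. ACPT, the testicular acid phosphatase (chr19:51293672-51298476, + strand), had a TR of 105 and 141 RPKM, an RA of 0.183, 0.264 and 0 RPKM and a TA of 0.0482 and 0.0331 RPKM. All TR values of both genes were far above all RA and TA values.
ACTA1 (chr1:229566112-229569851, - strand) had a TR of 225 RPKM in replicate 1 and 2.14 RPKM in replicate 2, an RA of 0.0652 to 0.268 RPKM and a TA of 0.109 and 0.120 RPKM. CKM (chr19:45809671-45826133, - strand) had a TR of 133 and 10.3 RPKM. Its RA was 0.149, 0.455 and 0.0587 RPKM and its TA 0.274 and 0 RPKM. These are muscle genes, and their rank rested on TR replicate 1.
PPP1R27 (chr17:79791368-79792926, - strand), a regulatory subunit of protein phosphatase 1, had a TR of 86.0 and 103 RPKM, 0 reads in all RA libraries, and 2 and 3 reads in TA. MCMDC2, a meiotic protein related to the MCM helicase, had a TR of 79.5 and 103 RPKM, an RA of 0.206 to 0.325 RPKM and a TA of 0.0348 and 0.111 RPKM. ABHD1, an alpha/beta hydrolase (chr2:27346657-27353680, + strand), had a TR of 69.9 and 89.3 RPKM, with RA between 0.0681 and 0.101 RPKM. TA of ABHD1 was 0.0449 and 0.0308 RPKM, below each of its RA values.
OPN1SW, the blue cone opsin (chr7:128412539-128415848, - strand), had a TR of 63.9 and 69.6 RPKM, 5 reads over the RA libraries and 1 read over the TA libraries. LENEP, a lens epithelial protein (chr1:154966062-154966791, + strand), had a TR of 65.9 and 57.7 RPKM, 1 read in RA and 0 in TA. KLB (chr4:39408550-39453153, + strand) had a TR of 58.3 and 67.4 RPKM, 22 reads in RA and 1 read in each TA library. SNX32, a sorting nexin (chr11:65601305-65624367, + strand), and WDR38, a WD repeat protein (chr9:127615696-127620169, + strand), had 5 reads each in RA and 0 in TA, at a TR of 56.9 to 71.5 RPKM. In 10 of the 12 the replicates of TR lay close to each other, the exceptions being ACTA1 and CKM.

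**Figure D1:**
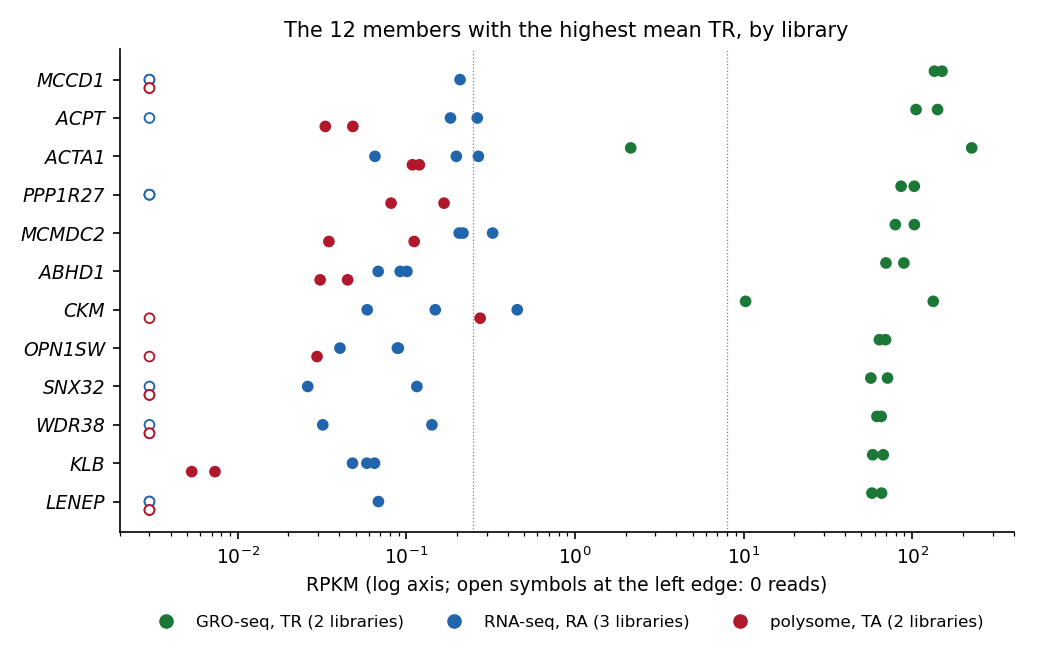
RPKM (log axis) of the 12 members with the highest mean TR in each library; green points are the 2 GRO-seq, blue the 3 RNA-seq and red the 2 polysome libraries, open symbols are libraries with 0 reads, and dotted lines are the limits of 0.25 and 8 RPKM. TR points lie to the right of all RA and TA points of the same gene, and the TR replicates are far apart for ACTA1 and CKM, at 225 and 2.14 RPKM and 133 and 10.3 RPKM.

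All 9 members on the muscle list were higher in TR replicate 1 than in replicate 2, by widely varying amounts. Besides ACTA1 and CKM, TNNI2, fast skeletal troponin I, had 27.4 RPKM in replicate 1 and 0.660 RPKM in replicate 2. MYL1, a fast muscle myosin light chain, and TNNT3, fast skeletal troponin T, had 20.5 and 18.6 RPKM in replicate 1 and 0 reads in replicate 2. MYOZ1, a Z-disc protein, had 19.9 and 7.63 RPKM, while the myosin light chain gene MYLPF had 54.9 and 30.6 RPKM, CKMT2, mitochondrial creatine kinase of muscle, 11.5 and 7.99 RPKM, and MYBPC2, fast skeletal myosin-binding protein C, 11.1 and 7.31 RPKM. Of all members, 7 had more than 2 times as much TR in replicate 1 as in replicate 2, of which 6 are on this list and the other is CRYAB, a small heat shock protein of lens and muscle, with 12.5 and 3.61 RPKM. In the opposite direction there were 10, of which SEPT7P9, SIGLEC16 and TNFRSF17 had the highest TR, and 0 of them differed by more than 4 times. These genes were listed after their values were seen. The part of the differing muscle signal in their membership was not tested beyond the count above. Of the 392 members, 12 lay below 8 RPKM in TR replicate 2 and 46 below 8 RPKM in replicate 1, and 334 reached it in both.

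**Figure D2:**
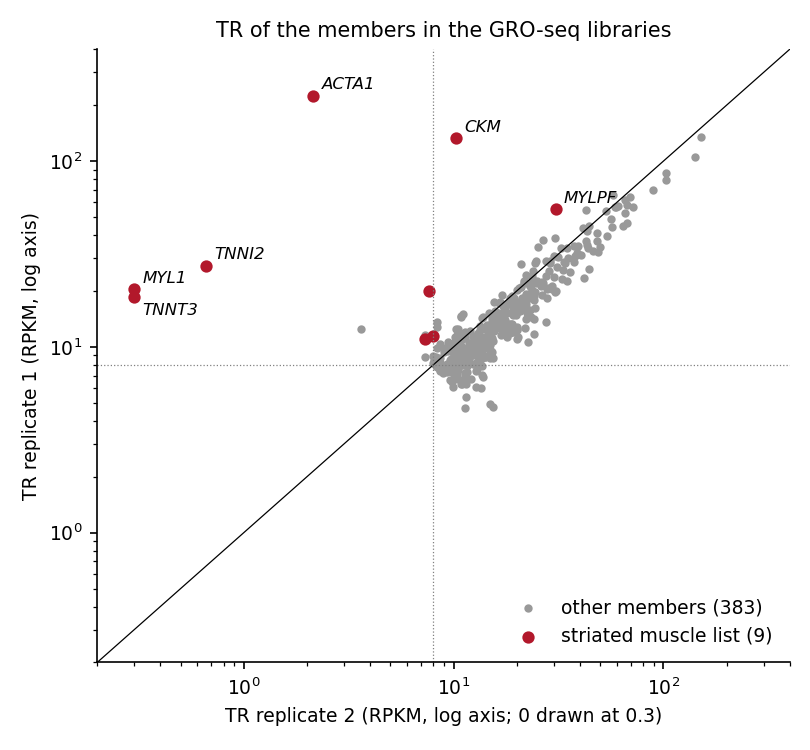
TR of the 392 members in the GRO-seq replicates (RPKM, log axes, 0 drawn at 0.3); red points are the 9 members on the striated muscle list, grey points the other 383, the solid line marks equal values and dotted lines 8 RPKM. ACTA1, CKM, TNNI2, MYL1 and TNNT3 lie far above the line, and most grey points lie along it.

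The members were mainly protein-coding genes. Of the 389 that matched the annotation, 363 (93.3%) were protein-coding, 12 long non-coding and 14 pseudogenes. The protein-coding share was 98.6% in the 9589 genes with the same TR limit and an RA of at least 0.25 RPKM, called genes with mRNA here, and 92.8% in the 1108 genes with the same low RA and a TR from 1 to below 8 RPKM, called weakly transcribed genes. RPL21P44, RPS15AP10, RPS16P5 and CYCSP52, named after their values were seen, are pseudogenes of ribosomal protein and cytochrome c genes, whose reads could belong to their near-identical copies. The members were short. Median transcript length was 1968 bases, against 3065 bases in the genes with mRNA and 2312 bases in the weakly transcribed genes, and the median number of exons was 5, 9 and 6. Of the 389 members 39 had 1 exon, against 2.22% of the genes with mRNA and 10.5% of the weakly transcribed genes.

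The symbols of the members were counted by family. Over all genes with values, members made up 1.95% of genes and 3.89% of those with a TR of at least 8 RPKM. A list of 22 families took in 117 members, of which 19 were open reading frame symbols and 9 FAM symbols. Of the ion channel symbols 13 of 260 were members, which was 23.6% of the 55 that reached 8 RPKM in TR. P2RX2, an ATP-gated channel, had a TR of 42.2 and 43.3 RPKM, RA values of 0.0225 to 0.0250 RPKM and 0 reads in TA. CHRNG, the fetal subunit of the muscle acetylcholine receptor, had 44.6 and 64.2 RPKM in TR and 0 reads in TA, and CHRNB2, a neuronal subunit, 35.2 and 43.1 RPKM in TR and 4 reads in 1 TA library. The shares of families were not tested against the background.
Of the G protein-coupled receptor symbols, 15 of 311 were members, of the 60 that reached 8 RPKM in TR. GPR151 had a TR of 39.3 and 53.9 RPKM, 1 read or fewer in each RA library and 0 reads in TA. CXCR5, a chemokine receptor of B cells, had 24.3 and 22.1 RPKM in TR and 0.0418 and 0.0144 RPKM in TA. Both had TA values far under 0.25 RPKM.
Testis and germ cell symbols numbered 11 members of 241, and 7 of the 11 had 0 reads in both TA libraries. SPATA25 had a TR of 57.4 and 60.5 RPKM and 1 read in TA. ODF3, an outer dense fibre protein of sperm, had 17.0 and 22.1 RPKM in TR and 0 reads in RA and TA. Of 85 ciliary symbols 5 were members, among them RSPH9, a radial spoke head protein, and DNALI1, an axonemal dynein light chain, with a TR of 25.2 and 36.0 RPKM.
Of the solute carriers, 12 of 347 were members, or 7.06% of those that reached 8 RPKM in TR. SLC10A1, the bile acid transporter of hepatocytes, had a TR of 32.7 and 46.0 RPKM and 0 reads in TA. Symbols of cytokines and hormones gave 7 members of 250 (2.80%), and those of immune surface proteins 4 of 186 (2.15%). The former included GNRH2 (34.2 and 32.3 RPKM in TR) and THPO, thrombopoietin (17.1 and 16.4 RPKM in TR). Of the 584 zinc finger symbols, 274 reached 8 RPKM in TR and 0 were members.
Of 395 olfactory receptor symbols, 10 reached 8 RPKM in TR and 6 (1.52% of the 395) were members. OR51Q1, OR51I2, OR51M1, OR51B6 and OR51I1 lie on chromosome 11 inside the span of OR51B5 (chr11:5324674-5526882), all on the strand opposite to it except OR51I1. Their TR ranged from 24.7 to 37.7 RPKM over both libraries, while TR of OR51B5 itself was 29.9 and 26.5 RPKM. OR51B5 had an RA of 25.7 to 43.3 RPKM and a TA of 9.43 and 13.5 RPKM, and the 5 members had between 0 and 2 reads in each TA library.

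The polysome signal of the members was close to the limit of detection. Their median TA was 0.0239 RPKM, 0.0223 RPKM in replicate 1 and 0.0158 RPKM in replicate 2, and the median number of reads over both TA libraries was 2. In TA replicate 1, 133 members (33.9%) had 0 reads, in replicate 2 176 members (44.9%), and 93 members (23.7%) had 0 reads in both. At least 3 reads in each TA library were found for 82 members (20.9%). The share was 20.5% in the weakly transcribed genes, 7.97% in the 5355 genes with low RA and a TR below 1 RPKM, called barely transcribed genes, and 99.3% in the genes with mRNA. The other members were below this floor of 3 reads in at least 1 TA library, where a value cannot be told from 0, and the floor covers counting error only.
The pooled TA of all members, summed reads over summed exon length, was 0.0468 and 0.0385 RPKM in replicates 1 and 2. The weakly transcribed genes gave 0.0364 and 0.0345 RPKM, the barely transcribed genes 0.0224 and 0.0190 RPKM and the genes with mRNA 27.6 and 27.7 RPKM. The members were above both groups without mRNA in each library, at a median TR of 13.3 RPKM against 2.58 and 0.0260 RPKM, and no test was made over these 2 libraries. Pooled RA lay in the same order, at 0.103, 0.0756 and 0.0296 RPKM. The log2 ratio of pooled TA to pooled RA in the members was between -1.56 and -0.86 over the 6 pairs of a TA and an RA library. In the weakly transcribed genes it was between -1.23 and -0.94, in the barely transcribed genes between -0.74 and -0.31 and in the genes with mRNA 0.02. The genes with mRNA held 94.1% to 94.3% of the reads in the RA libraries and 95.3% and 95.6% in the TA libraries. Scaling to library size thus holds their ratio near 0, and no difference from the members is read from it. The ranges of the members and the weakly transcribed genes overlapped.

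**Figure D3:**
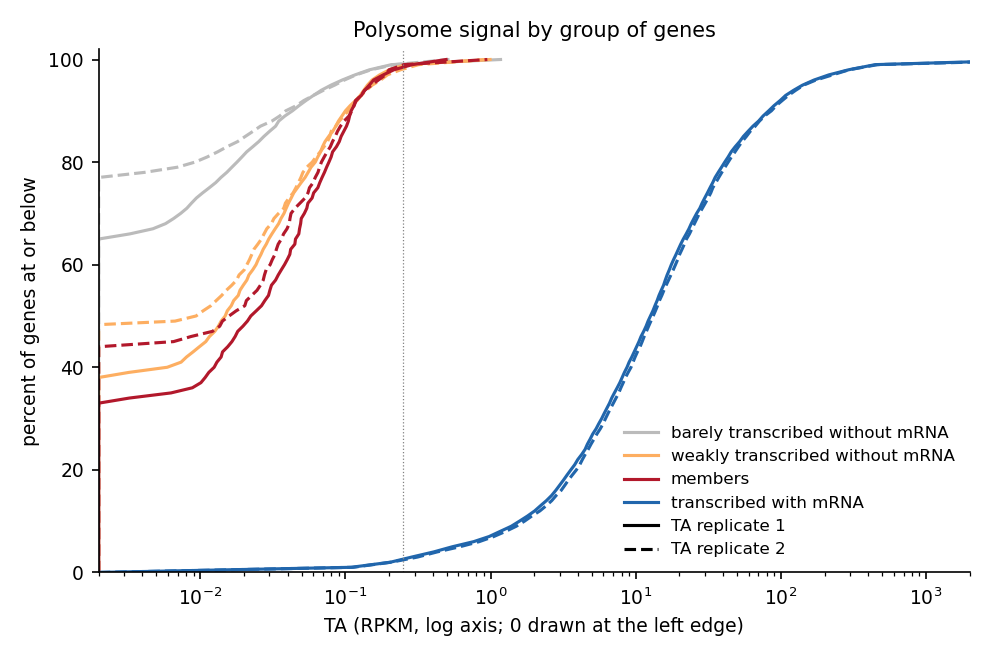
Cumulative share of genes (percent) by TA (RPKM, log axis, 0 drawn at the left edge) in TA replicate 1 (solid) and replicate 2 (dashed) for the members (red), weakly (orange) and barely transcribed genes without mRNA (grey) and genes with mRNA (blue); the dotted line marks 0.25 RPKM. The members' curves lie close to those of the weakly transcribed genes and reach 100% below 1 RPKM, with medians of 0.0223 and 0.0158 RPKM.

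A mean TA of 0.25 RPKM or more was found in 5 members (1.28%). The share was 1.62% in the weakly and 0.598% in the barely transcribed genes, and 61.4% in all genes with values. In both TA libraries 0 members reached 0.25 RPKM, against 0.722%, 0.28% and 60.2% of these groups. KRTAP4-7, a keratin-associated protein of hair, had 0 reads in TA replicate 1 and 20 reads, or 0.951 RPKM, in replicate 2, with an RA of 0.105, 0.0473 and 0.570 RPKM. It belongs to a family of closely similar genes, so its reads are uncertain. CSF1R, the receptor of macrophage colony-stimulating factor, had 0.484 and 0.189 RPKM against 0.145 to 0.452 RPKM. TA and RA overlapped in both, and without TA replicate 2 KRTAP4-7 had a TA of 0.
JSRP1, a sarcoplasmic reticulum protein, had a TA of 0.369 and 0.195 RPKM and an RA of 0.0850 to 0.172 RPKM, without overlap. SLC5A2, the glucose transporter of the proximal tubule, had 0.286 and 0.216 RPKM in TA and 0.0856 to 0.332 RPKM in RA. The next were CLDND2, a claudin domain protein, at 0.133 and 0.366 RPKM, ANGPTL6, an angiopoietin-like protein, at 0.210 and 0.288 RPKM, RSPH9 at 0.245 and 0.253 RPKM, NKPD1 at 0.298 and 0.190 RPKM and MYBPC2 at 0.289 and 0.186 RPKM. The 10 members of highest TA took 17.2% and 15.6% of the members' reads in TA replicates 1 and 2. In 40 members (10.2%) mean TA was above mean RA. This was so for 16.4% of the weakly and 20.6% of the barely transcribed genes and 26.7% of all genes with values. In 3 members (0.765%), PPP1R27, JSRP1 and WFIKKN1, both TA libraries were above all RA libraries, and WFIKKN1 is named after its values were seen. The share was 1.71% in the weakly and 1.64% in the barely transcribed genes, and 10.8% in all genes with values. In 150 members (38.3%) both TA libraries were below all RA libraries, against 33.4% of all genes with values, 27.5% of the weakly transcribed genes and 43.9% of the genes with mRNA.
Among the members TA was higher at higher RA, with a Spearman rho of 0.65 across the 392 genes, which share libraries and differ in exon length. Median TA was 0.00321 RPKM in the 129 members with an RA below 0.05 RPKM and 0.0700 RPKM in the 57 with an RA of 0.2 RPKM or more. TR and TA had a rho of 0.09. The 7 members with 0 reads in all 5 RA and TA libraries included ODF3, C22orf31, the bitter taste receptor TAS2R50, SMLR1 and MYL1, at a TR of 8.21 to 22.1 RPKM apart from MYL1.

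TA and RA were compared gene by gene with limma on log2(RPKM + 0.1) over all 14305 expressed genes. All 392 members passed the filter of 1 RPKM through their TR. TA was called below RA for 50 members (12.8%), against 29.2% of all genes tested, and above RA for 1 member (0.255%), against 6.66%. RA was used to choose the members and all of them passed the filter through TR, so nothing is read from these shares, and the fitted differences of single members are given as a description, with no p. The fitted difference was below 0 in 345 members, with a median of -0.43, and -0.37 over all genes tested. With each library centred on its median the calls were 4 below and 9 above (1.02% and 2.30% of members), and over all genes 9.81% below and 19.0% above, so the balance of directions moved with the scaling over all genes too. Without TA replicate 1 there were 10 calls below, and without TA replicate 2 12.
Lowest among the members called was NODAL, a ligand of embryonic axis formation, with an RA of 0.307, 0.149 and 0.233 RPKM and 0 reads in TA (log2 difference -1.69, SE 0.30). PGLYRP1, a peptidoglycan recognition protein of neutrophils, had an RA of 0.310, 0.0466 and 0.358 RPKM and 0 reads in TA (log2 difference -1.59). FAM20A, a pseudokinase of enamel formation, had an RA of 0.134 to 0.263 RPKM and a TA of 0.0140 and 0 RPKM (log2 difference -1.45). C9orf163, listed as long non-coding, had an RA of 0.189 to 0.325 RPKM and a TA of 0.0126 and 0.0347 RPKM (log2 difference -1.45). OR51I2 had an RA of 0.0909 to 0.230 RPKM and 0 reads in TA (log2 difference -1.43). The member called above was PPP1R27, with 0 reads in RA and a TA of 0.0813 and 0.167 RPKM (log2 difference 1.14), which rests on 5 reads and was not called with a pseudocount of 1, with a replicate block or without TA replicate 2. The sizes depend on the pseudocount, and the median difference of the members was -1.19 with a pseudocount of 0.01 and -0.07 with 1.

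The genomic neighbourhood of the members was examined next. The rule did not use gene positions. The TR of the neighbours, however, came from the same GRO-seq libraries and was held to the same limit of 8 RPKM as that of the members. The comparison groups were set by TR and RA too, so the shares and correlations below are a description and not independent of the rule. A gene with a TR of at least 8 RPKM overlapped or lay within 10000 bases of 344 of 389 members (88.4%). This was so for 53.0% of the weakly transcribed genes and 66.5% of the genes with mRNA. The most strongly transcribed gene within this distance, whatever its level, had a median TR of 24.1 RPKM for the members, 8.80 RPKM for the weakly transcribed genes and 17.4 RPKM for the genes with mRNA. It exceeded the TR of the gene itself in 275 members (70.7%), in 70.5% of the weakly transcribed genes and in 38.9% of the genes with mRNA. Of the 344 members with such a gene at 8 RPKM or more, it lay on the opposite strand in 249 (72.4%), against 59.2% and 63.7%. Across the 344 members, its TR and their own had a Spearman rho of 0.37. The members were not tested against the other groups here, and the part of neighbouring transcription in their TR was not tested.
Each gene was then put in 1 class, from the genes that overlap it and the nearest gene on each side within 10000 bases. A shared exon came first, then an overlapping span, then the gene on the upstream side (behind the end, or head to head) and last the gene on the downstream side (end to end, or ahead). An exon was shared with a strongly transcribed gene in 95 members (24.4%), on the opposite strand in 88 of them. The shares were 8.45% and 16.7% in the weakly transcribed genes and the genes with mRNA. ABHD1 shares exon bases with PREB (TR 45.6 RPKM, TA 24.3 RPKM), OPN1SW with CALU (TR 26.9 RPKM, TA 106 RPKM) and FAM166A with TUBB4B (TR 304 RPKM, TA 371 RPKM). FAM166A itself had a TR of 56.8 and 59.1 RPKM and a TA of 0.0566 and 0 RPKM. Over the 95, the neighbours had a median RA of 22.9 RPKM and TA of 18.8 RPKM, the members a median TA of 0.0326 RPKM.
Another 66 members (17.0%) lay inside or across the span of such a gene without a shared exon, against 9.36% and 11.5%. SNX32 lies across CFL1, the gene of cofilin (TR 148 RPKM, TA 1029 RPKM), and WDR38 across RPL35 (TR 150 RPKM, TA 495 RPKM), both on the opposite strand, as were 54 of the 66. Both members had 0 reads in TA beside neighbours with a far higher TA.
A strongly transcribed gene faced 140 members (36.0%) end to end as their nearest downstream gene, in whatever class, against 15.2% of the weakly transcribed genes and 17.9% of the genes with mRNA. After the classes taken before it, end to end was left as the class of 86 members (22.1%), against 12.1% and 8.96%. The gap between their ends had a median of 2243 bases. ACPT lies 2468 bases from the end of C19orf48 (TR 145 RPKM), KLB 1054 bases from that of RPL9 (TR 110 RPKM) and CKM 1129 bases from that of MARK4 (TR 31.6 RPKM). All 86 neighbours had an RA of at least 1 RPKM, with a median of 20.02 RPKM, against 0.0632 RPKM in the members. TR of the neighbour and of the member had a Spearman rho of 0.51 and the gap and TR of the member -0.12.
Behind the end of a gene on the same strand lay 51 members (13.1%), against 9.73% and 11.5%, at a median distance of 1976 bases. LENEP lies 475 bases behind FLAD1 (TR 46.3 RPKM), PPP1R27 8109 bases behind P4HB (TR 138 RPKM) and ACTA1 6155 bases behind NUP133 (TR 14.8 RPKM). Ahead of a gene on the same strand lay 25 members, led by ASPDH, 380 bases from JOSD2, ZBTB32, 935 bases from KMT2B, and PIANP, 4219 bases from ZNF384. Head to head with a gene lay 20, or 5.14%, against 5.27% of the weakly transcribed genes and 10.6% of the genes with mRNA, led by MYLPF, TCTE3 and CHRNB2. CHRNB2 also faced ADAR end to end, at 1682 bases. Downstream of MYLPF, SEPT1 (TR 83.2 RPKM) lay on the opposite strand at 144 bases. The nearest downstream gene of MYLPF was ZNF48, on the same strand at 115 bases.
None of these classes held for 46 members (11.8%), against 47.6% and 33.6%. These were led by MCCD1, MCMDC2 and C17orf82 (TR 28.3 and 28.9 RPKM), and held TNNI2 and MYL1. The classes take in only genes matched to the deposited values, with a TR of at least 8 RPKM. MCCD1 shares 14 exon bases with DDX39B on the opposite strand, whose TR was 4.23 RPKM, RA 0.204 RPKM and TA 0.164 RPKM. The paper does not state how reads over exons of more than 1 gene were counted. The low values of DDX39B, and with them the class of MCCD1, are therefore uncertain, and their cause was not tested. In MCMDC2, 1488 exon bases are overlapped by annotation not matched to the deposited values. The median TR of the 46 members was 10.9 RPKM, the lowest of the 7 classes. Their median TA was 0.0223 RPKM, within the range of 0.0164 to 0.0341 RPKM of the other classes. TA was low in every class.

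**Figure D4:**
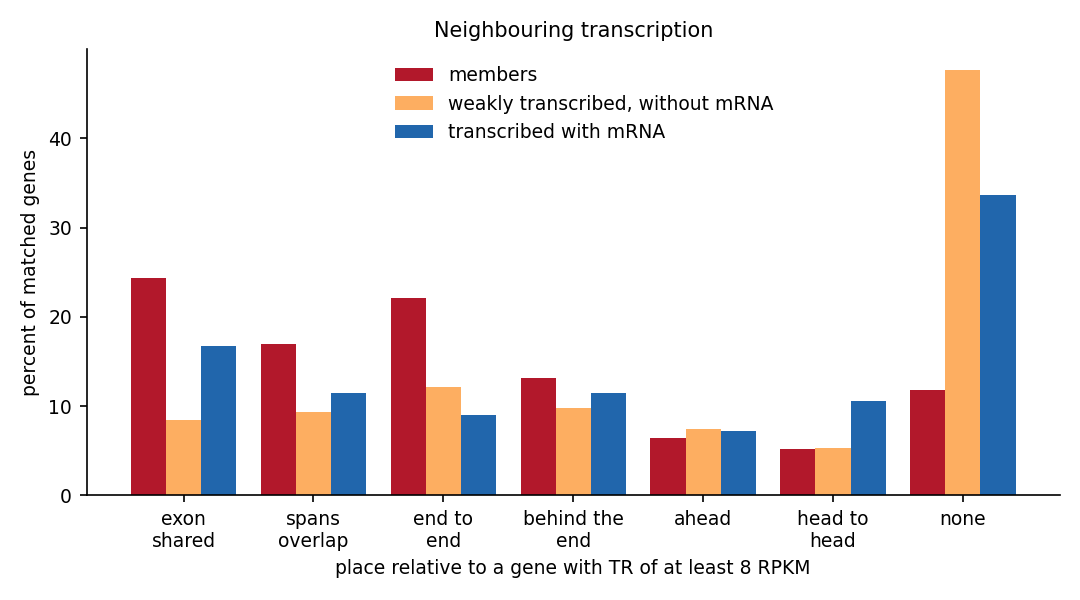
Percent of the matched genes in each class of place, each gene in 1 class by the fixed order, beside a gene with a TR of at least 8 RPKM, for the members (red, 389), weakly transcribed genes without mRNA (orange, 1100) and genes with mRNA (blue, 9553); bars start at 0. The members have the tallest bars for a shared exon (24.4%) and end to end (22.1%) and the lowest for none of these (11.8%).

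The promoters of the members were poor in CG. In the 250 bases before the start, available for 389 of the 392, the median was 6 CG (quartiles 3 and 17), against 6 in the weakly transcribed genes, 5 in the barely transcribed genes and 23 in the genes with mRNA. At most 5 CG were found in 175 members (45.0%), against 46.5% of the weakly transcribed genes and 4.84% of the genes with mRNA, and at least 20 CG in 82 (21.1%), against 23.7% and 62.7%. TATAAA was found on either strand in 36 members (9.25%), against 14.8% of the weakly and 17.6% of the barely transcribed genes, 4.60% of the genes with mRNA and 9.41% of all promoters of the table. It lay between 40 and 15 bases before the start on the strand of the gene in 18 (4.63%), against 3.85% of all promoters of the table, 6.73% of the weakly transcribed genes and 1.70% of the genes with mRNA. The 18 included ACTA1, GNRH2, the lens genes CRYBA1 and MIP, and KRTAP4-7. Among the 12 members with the highest TR, LENEP had 0 CG, OPN1SW 1, MCCD1 2, CKM and KLB 5 each, ACPT 9, PPP1R27 12, MCMDC2 20, ACTA1 22, ABHD1 25, and SNX32 and WDR38 26 each. The differences between the groups were not tested. Methylation or factor binding at these promoters was not measured.

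**Figure D5:**
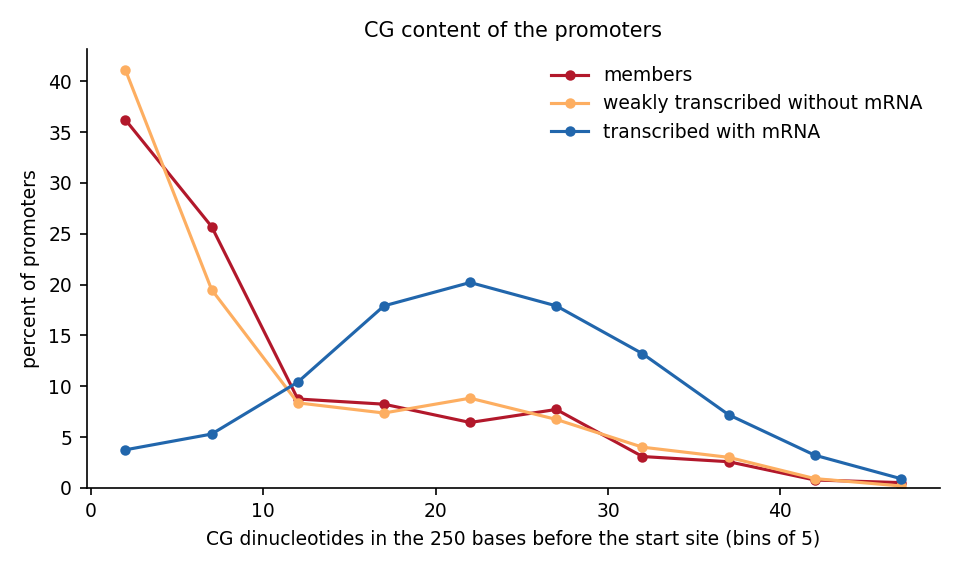
Percent of promoters by the number of CG dinucleotides in the 250 bases before the start (bins of 5), for the members (red, 389 promoters), weakly transcribed genes without mRNA (orange, 1100) and genes with mRNA (blue, 9553). The red and orange lines are highest at 0 to 4 CG (36.2% and 41.1%) and the blue line at 20 to 24 CG (20.2%).

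Members were found on chromosome 17 most often, 44 of 1164 matched genes (3.78%), followed by 11 (3.07%) and 20 (2.99%), and least often on X, with 3 of 838 (0.358%), and 7, with 5 of 934 (0.535%). They were scattered, with 10 pairs of members within 10000 bases of each other and no run longer than 2. OR51I1 and OR51I2 were 1 such pair. Exons of 150 members (38.6%) overlapped those of any annotated gene, against 37.2% of the genes with mRNA, and in 3 members an exon held a small RNA gene.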

How the data were processed

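RNA of HCT116 cells was measured in 7 libraries, 2 by GRO-seq (TR), 3 by RNA-seq (RA) and 2 by polysome profiling (TA), the last from cells incubated with cycloheximide before harvest. The authors used TopHat with its default settings and the hg19 genome, counted reads over exons with HTSeq and deposited RPKM values, with CASAVA also named in the submitters' processing notes. Versions, annotation and strand setting are not given in the sources used here. GRO-seq RNA was not selected for poly(A), so TR and RA also differ in library preparation. Groups were taken from the sample titles.

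Whole reads were worked out from the RPKM values (tolerance 0.0001), and for 6 members the reads and the exon length were multiplied by a common factor. TA and RA were compared with limma 3.58.1 (R 4.3.3) on log2(RPKM + 0.1), with a trend in eBayes and all 7 libraries in 1 fit, over genes with a mean of at least 1 RPKM in TR, RA or TA, with Benjamini-Hochberg adjustment at 0.05. The fold changes are on that scale and understate changes of low genes. Tested on simulated data for this comparison, limma called 200 of 200 genes changed 4-fold and 2 of 11427 unchanged genes (11627 genes). The simulation took genes with a mean RA of at least 1 RPKM, which no member reached. It does not speak to calls at the level of the members. In simulated reads, 99.2% of 15216 genes with 20 or more reads were recovered exactly. Symbols were matched to GENCODE release 44 on GRCh37, directly or by older symbol, and PRR25, FLJ45513 and MTVR2 were not matched. Promoter sequences were read from GRCh37. Tables were made with Python 3.11.15, pandas 2.3.3, numpy 2.4.6 and scipy 1.17.1, and plots with matplotlib 3.10.9.

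The members and lists were chosen with earlier results of these data known, and the striated muscle list, the neighbour classes and the promoter counts after the data were seen. Genes named are the 12 members of highest TR, the 10 of highest TA, up to 5 called in each direction, 6 with 0 reads in RA and TA, the 3 nearest to each limit on either side, and up to 3 of highest TR per family or class, with their neighbours. A few genes and sequences that this choice includes are not reported here. Other names are given as chosen after their values were seen or belong to the marker lists. Alternatives were other pseudocounts, filters, scalings, limits and distances, a replicate block, and leaving out each library. P-values measure the spread between these libraries.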

Additional observations from a re-analysis of the deposited data

How the results depend on the processing

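The count of members with TA below RA, 50 by limma, moved with the processing, and the share of all genes tested is given beside each count. It was 101 with a pseudocount of 0.01 (all genes 29.9%), 0 with a pseudocount of 1 (25.1%; 0 members also at an unadjusted p under 0.05), 30 with no filter (20.4%), 4 with the libraries centred on their medians (9.81%) and 78 with voom weights on reads (31.3%), which was added after seeing the data. Leaving out 1 library gave 10 to 56, with 10 without TA replicate 1 (12.6%) and 12 without TA replicate 2 (19.9%). The count above RA, 1, was 0 with a pseudocount of 1 and 9 with centred libraries, where the median difference was 0.07 for the members and 0.13 for all genes. It was 0 to 1 with 1 library left out, the 0 being without TA replicate 2. The causes of these shifts were not tested.

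With the replicate number as a block, 9 members were called below and 0 above, with 9.70% and 0.762% of all genes (85 members had an unadjusted p under 0.05). The numbers are not stated to mark a shared batch. The difference between replicates 1 and 2 in RA correlated at -0.50 with that in TA. For TR and TA the correlation was 0.01, and for TR and RA 0.08. In RA and TA, libraries of the same number thus tended to deviate in opposite directions, whereas the block takes them to deviate alike. The main fit leaves this link out, and its cause was not tested.

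The number of members, 392, was 729 and 154 with TR limits of 4 and 16 RPKM, 215 with an RA limit of 0.1 RPKM, 253 with the limits met in every library, and 356 to 421 with 1 library left out. Median TA, 0.0239 RPKM, was 0.00843 RPKM with an RA limit of 0.1 RPKM, 0.0307 RPKM with TA scaled to RA, and 0.0158 to 0.0223 RPKM in single TA libraries. The 5 members with a TA of at least 0.25 RPKM became 1 with a TR limit of 16 RPKM, 0 with an RA limit of 0.1 RPKM, 12 with TA scaled to RA and 5 to 7 with 1 library left out. The 82 members with at least 3 reads in each TA library became 176 at 1 read and 13 at 10 reads. The share with exons overlapped by another gene, 38.6%, was 3.60% where at least 50% of the exon bases had to be covered and 25.7% with protein-coding genes. The 344 members beside a strongly transcribed gene became 267 and 367 when the nearest genes within 2000 or 50000 bases were taken. The planned tests with negative binomial count models were not run, because the deposited values are RPKM. Depth limits TA, at a median of 2 reads per member over both libraries.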
